A study of Mus musculus with 12 samples.

Results

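Mitosis and cytokinesis genes were followed through 11 expression arrays of cultured mouse aortic endothelial cells that differed in the transcription factors Ets1 and Ets2. The 38 genes listed encode the cyclins, kinases, motors and chromosome proteins that a cell makes as it divides. A gene was represented by its brightest probe set among those that the annotation gives its symbol alone, and 37 of the 38 genes could be followed, out of 11015 genes in all. Ccnb1 was not analysed here.

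The cells came from aortas of mice aged 4 weeks. The groups were Ets1/2 null (Ets1-/-; Ets2 fl/fl, lentiviral egfp-Cre), Ets2 null (Ets1+/+; Ets2 fl/fl, lentiviral egfp-Cre), Ets1 null (Ets1-/-; Ets2 fl/fl, lentiviral egfp) and wild type (Ets1+/+; Ets2+/+, lentiviral egfp). Every group therefore received a lentivirus with egfp, and Cre was present only where Ets2 was to be deleted, so effects of Cre and of Ets2 loss cannot be told apart. The titles count 3 biological replicates a group without saying whether each came from its own animal, and p-values measure the spread between these arrays. The column titled as the third Ets1/2 null replicate held the average of the first and second in 20521 of 20523 probe sets (within 1e-06; the largest deviation was 0.585, log2) and was left out, which leaves n = 2 in that group and n = 3 in the others. The wild-type arrays are Ets2+/+ and not floxed. For the single nulls, a description field contradicts the title and genotype, and the groups here follow the title and genotype.

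Cells copy their DNA in S phase and divide it in M phase. Entry into mitosis is driven by Cdk1 with cyclins A and B and by the Aurora and Polo kinases. Chromosomes are then condensed, attached to the spindle through their kinetochores and held by the spindle checkpoint until the anaphase-promoting complex marks cyclins and securin for destruction. A ring of actin and myosin positioned by the central spindle then cuts the cell apart. These genes are transcribed mainly in G2 and M phase, and their RNA is scarce in cells that have left the cycle. In cultured endothelial cells they serve as a readout of proliferation.

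Many of these genes share a promoter layout, with CCAAT boxes (bound by NF-Y) upstream of a cell cycle genes homology region, TTTGAA, near the start. RefSeq promoter windows (GRCm38.p6, from 250 bases before to 50 bases after the start) matched 34 of the 38 listed genes. The stretches of 4 genes, from 110 bases before the start to 40 bases after it, are shown because they carry both elements. They were picked after the sequences had been read. Capitals mark TTTGAA and CCAAT on either strand (TTCAAA and ATTGG where the match is on the other strand). Ccnb2, the partner of Cdk1, lies at chr9:70421515-70421664 on the minus strand, Cdk1 at chr10:69352873-69353022 on the minus strand, Cdc20 at chr4:118437304-118437453 on the minus strand and Ube2c at chr2:164769819-164769968 on the plus strand.
Ccnb2: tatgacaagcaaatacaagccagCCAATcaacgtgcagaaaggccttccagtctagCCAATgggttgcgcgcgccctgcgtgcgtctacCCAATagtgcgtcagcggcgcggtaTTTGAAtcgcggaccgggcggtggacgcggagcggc
Cdk1: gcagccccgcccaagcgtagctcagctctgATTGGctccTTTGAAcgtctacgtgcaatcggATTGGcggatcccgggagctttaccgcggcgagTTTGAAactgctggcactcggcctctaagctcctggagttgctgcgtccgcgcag
Cdc20: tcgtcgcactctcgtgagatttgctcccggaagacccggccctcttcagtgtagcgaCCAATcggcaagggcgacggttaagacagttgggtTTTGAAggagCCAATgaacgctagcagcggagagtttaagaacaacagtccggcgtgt
Ube2c: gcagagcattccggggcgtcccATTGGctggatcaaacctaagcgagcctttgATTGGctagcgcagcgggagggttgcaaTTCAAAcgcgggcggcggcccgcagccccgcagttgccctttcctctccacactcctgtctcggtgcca

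TTTGAA was found in 26 of the 34 windows (76.5%), against 20.2% of the 27025 genes with a RefSeq window and 13.8% of the 8921 such genes in the fit. It lay within 50 bases of the start in 23 of the 34 genes (67.6%), against 5.72% of all windows. CCAAT was found in 25 windows (73.5%), against 41.1% of all windows, and 17 genes (50%) had more than 1 copy, against 13.3%. Both motifs occurred together in 22 genes (64.7%), against 7.97% of all windows. The related TTCGAA was found in 3 genes (8.82%), against 1.8%. In the 46 DNA replication genes with a window, TTTGAA was found in 15.2%. GGAA, the core of ETS factor sites, was found in all 34 windows and in 96.5% of all windows, so its presence separates nothing at this length. A match describes the letters only.

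The deposited values are log2 probe set intensities after RMA. All levels below are centred values, log2 values minus that array's median over the 11015 genes, so 0 is the middle gene of the array. Centring matters because the deposited median over genes was 8.73 and 8.69 in the labelled Ets1/2 null arrays, against 9.37 to 9.50 in the other 9 arrays. The labels were checked on the targeted genes. Ets1 stood at 1.29 and 1.60 in the arrays labelled Ets1/2 null, 0.09, 0.16 and 0.43 in Ets2 null arrays, -1.16, -0.70 and -0.32 in Ets1 null arrays, and 0.89, 0.41 and 0.56 in wild-type arrays. Ets1 was not called lower in Ets1 null than in wild type, with a difference of -1.35 ± 0.23 (SE, limma, adjusted p = 0.151). Nor was it called in the values as deposited or after quantile normalization (limma, adjusted p of 0.189 and 0.173). Against its label, Ets1 was higher in the arrays labelled Ets1/2 null than in Ets1 null by 2.17 ± 0.25 (log2, SE, limma, adjusted p = 0.000713), a call made also in the values as deposited and after quantile normalization. It was higher than in wild type by 0.82 ± 0.25 (SE, limma, adjusted p = 0.0393) after centring only, since the difference was 0.10 in the values as deposited (limma, adjusted p = 0.762) and 0.68 after quantile normalization (limma, adjusted p = 0.0764). Ets2 stood at 2.28 and 0.94 in the arrays labelled Ets1/2 null, 0.22, -0.05 and 0.68 in Ets2 null arrays, 0.81, 0.91 and 1.05 in Ets1 null arrays, and 0.35, 0.58 and 1.21 in wild-type arrays. Ets2 was not called lower in Ets2 null than in wild type, with a difference of -0.43 (log2, limma, adjusted p = 0.544). It was higher in the arrays labelled Ets1/2 null than in Ets2 null by 1.33 after centring (limma, adjusted p = 0.0325), and by 0.62 in the values as deposited (limma, adjusted p = 0.255). Whether either probe set lies in the deleted exons is not given in the sources used here.

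Of 28 endothelial markers 10 could be followed, and the defining markers Pecam1 and Cdh5 were not among them. Kdr, the main receptor for vascular endothelial growth factor, lay below the array median in all 11 arrays (-2.45 to -1.77), whereas the caveolar protein gene Cav1 lay above it in all (1.69 to 4.73). The fibroblast collagen gene Col3a1 also lay above it in all 11 arrays (1.46 to 5.00). Bulk arrays cannot tell fewer dividing cells from less RNA per dividing cell.

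In 9 of the 11 arrays the mitosis and cytokinesis genes stood above the average gene. Their median was 1.31 in labelled Ets1/2 null array 1, 1.73 and 1.31 in Ets2 null arrays 1 and 2, 1.28, 1.23 and 1.91 in Ets1 null arrays, and 1.43, 1.35 and 1.81 in wild-type arrays. The other 2 arrays stood apart. Labelled Ets1/2 null array 2 had a median of -0.89, and Ets2 null array 3 had a median of -2.91. Of the 37 genes, 31 and 10 lay above the array median in labelled Ets1/2 null arrays 1 and 2, 37, 36 and 0 in Ets2 null arrays 1 to 3, 34, 32 and 37 in Ets1 null arrays, and 35, 33 and 36 in wild-type arrays. The means of these array medians were 0.21 ± 1.56 in labelled Ets1/2 null (SD, n = 2), 0.04 ± 2.57 in Ets2 null (SD, n = 3), 1.48 ± 0.38 in Ets1 null (SD, n = 3) and 1.53 ± 0.25 in wild type (SD, n = 3).

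**Figure D1:**
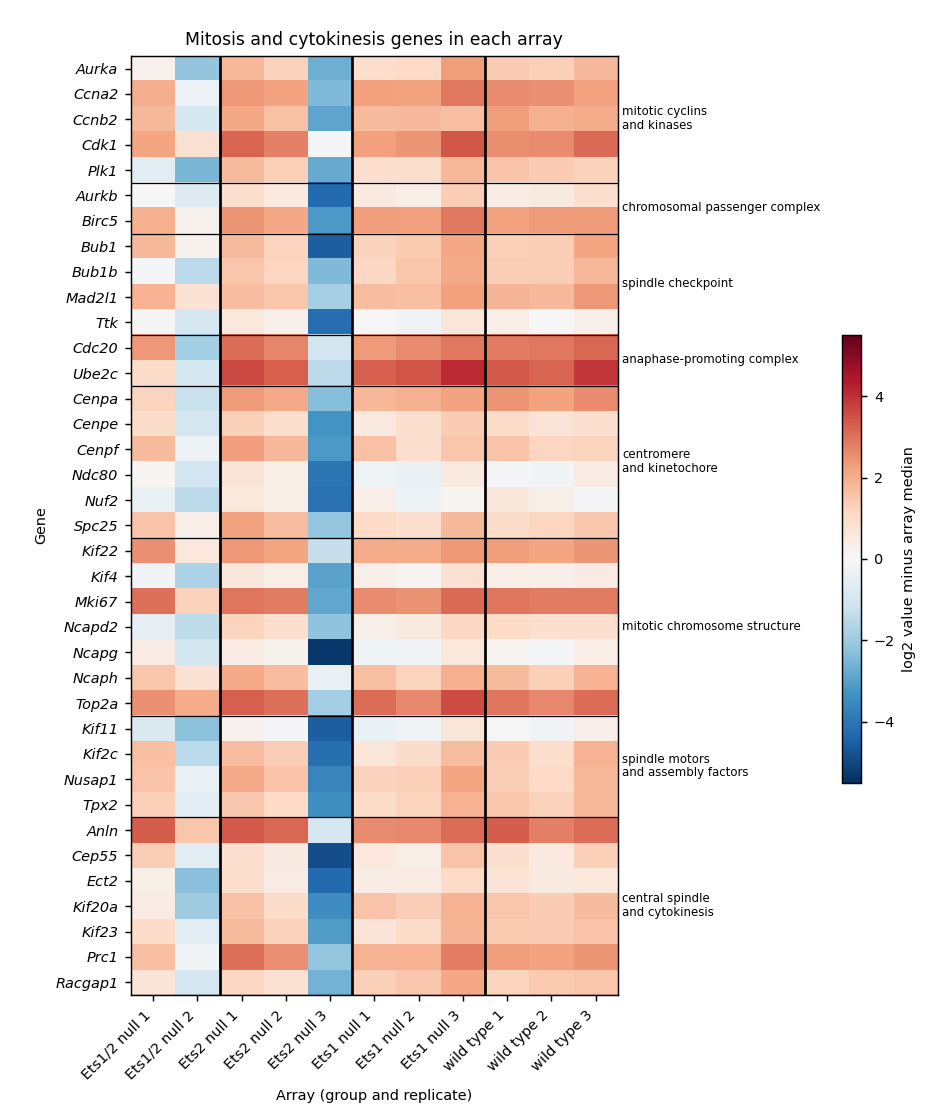
Centred level of the 37 mitosis and cytokinesis genes (lines, grouped by role) in 11 arrays (columns, grouped by genotype), with colour for log2 value minus array median. Ets2 null array 3 is blue in nearly every line and labelled Ets1/2 null array 2 is pale or blue in most, while the other 9 arrays are mainly red.

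With all 11 arrays in the fit and centred values, no mitosis or cytokinesis gene was called in any of the 6 comparisons (limma, Benjamini-Hochberg adjusted p under 0.05 over all genes). For Ets2 null against wild type the count was 0 of 37, beside 0.436% of all genes called in either direction. For the arrays labelled Ets1/2 null it was 0 of 37 against wild type, beside 28.3% of all genes, 0 of 37 against Ets1 null, beside 28.7%, and 0 of 37 against Ets2 null, beside 30.3%. For Ets1 null against wild type it was 0 of 37, beside 0.00908% (1 gene). The Ets1 by Ets2 interaction, the change that accompanies Ets2 loss on the Ets1-/- background less that on the Ets1+/+ background, gave 0 of 37, beside 14.5%. In the values as deposited, without centring, Ube2c, Bub1b, Plk1 and Ncapd2 were called lower in the arrays labelled Ets1/2 null, 4 of 37 against wild type, beside 43.6% of all genes called lower, and 4 of 37 against Ets1 null, beside 42.8%. At an unadjusted p under 0.05 after centring, 3 of the 37 genes passed in labelled Ets1/2 null against wild type, beside 40.4% of all genes, and 3 against Ets1 null, beside 41.0%. None passed in labelled Ets1/2 null against Ets2 null, beside 42.7% of all genes, in Ets2 null against wild type, beside 18.9%, in Ets1 null against wild type, beside 8.71%, or in the interaction, beside 31.3%. The spread behind these tests was wide. The median SE of the difference between Ets2 null and wild type was 1.12 over the 37 genes, against 0.22 over all genes. These comparisons share arrays, so their values are given side by side only.

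The low array of the Ets2 null group went with the whole gene group. Ets2 null array 3 lay below the mean of arrays 1 and 2 by more than 1 (log2) in 37 of 37 genes, against 6.55% of all genes. The median gap was -4.59 over the mitosis and cytokinesis genes, ranging between -6.01 for Bub1 and -2.29 for Ncaph. This array was the lowest of all 11 in 36 of the 37 genes, against 16.6% of all genes. The exception was Cdc20, the activator of the anaphase-promoting complex, which was lowest in labelled Ets1/2 null array 2 in its brightest probe set. Its other probe sets parted, at -1.33 and -1.35 in Ets2 null array 3 and -0.76 and -2.04 in labelled Ets1/2 null array 2. Ets2 null array 3 was singled out after its values were seen, so these are descriptions with no test. Xist and the Y-linked Eif2s3y mark all 3 Ets2 null arrays as male, so the low array had the same sex as the other arrays of its group. Sex differed between groups, since both labelled Ets1/2 null arrays and all 3 Ets1 null arrays were female and 1 of the 3 wild-type arrays was male. With a term for male arrays no gene of the 37 was called, and the median difference was -1.45 for Ets2 null against wild type and -1.24 for labelled Ets1/2 null against wild type. Labelled Ets1/2 null and Ets2 null share no sex, so that term rests on the wild-type arrays alone, and all genes called between these groups numbered 261 (2.37%) with it.

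Labelled Ets1/2 null array 2 lay below array 1 in all 37 genes, with a median gap of -1.77 between the extremes of -4.25 for Cdc20 and -0.44 for Top2a. The gap exceeded 1 in 33 genes, against 7.15% of all genes below -1. This array lay below every other array except Ets2 null array 3 in 37 of 37 genes, against 14.2% of all genes. Labelled Ets1/2 null array 1 lay below every array of the other groups except Ets2 null array 3 in 18 genes, against 24% of all genes. Its gap to the wild-type mean had a median of -0.33 and lay between -2.49 for Ube2c and 0.44 for Cep55.

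Smaller shifts between arrays of a group also ran through the gene group. Ets1 null array 3 was the highest of its group in 34 of the 37 genes, against 29.5% of all genes, and wild-type array 3 in 26 genes, against 39.5%. Ets2 null array 1 lay above array 2 in 37 of 37 genes, against 53.6%. The median gap was 0.72 between Ets1 null array 3 and the mean of arrays 1 and 2 and 0.28 between wild-type array 3 and the mean of its arrays 1 and 2.

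Among the mitotic cyclins and kinases, Cdk1, the kinase that starts mitosis, had 2.19 and 0.82 in the labelled Ets1/2 null arrays, 3.20, 2.78 and -0.06 in Ets2 null, 2.25, 2.42 and 3.42 in Ets1 null, and 2.57, 2.60 and 3.13 in wild type. Both labelled Ets1/2 null arrays lay below all wild-type arrays for this gene. Here and for the genes below, such separation only describes the printed values. The share of all genes that show it is not given here, and 28.3% of all genes were called in this comparison. Ccna2, cyclin A2, had 1.99 and -0.33 in the labelled Ets1/2 null arrays, 2.40, 2.23 and -2.41 in Ets2 null, 2.27, 2.23 and 2.92 in Ets1 null, and 2.59, 2.50 and 2.21 in wild type. Ccnb2, cyclin B2, had 1.78 and -0.89 in the labelled Ets1/2 null arrays, 2.11, 1.63 and -2.91 in Ets2 null, 1.73, 1.79 and 1.67 in Ets1 null, and 2.32, 1.97 and 2.02 in wild type. The 3 Ets1 null arrays lay below the 3 wild-type arrays for Ccnb2, by 0.37 ± 1.18 (SE, limma, adjusted p = 0.95). Plk1, the Polo kinase of spindle assembly and cytokinesis, had -0.63 and -2.51 in the labelled Ets1/2 null arrays, 1.76, 1.31 and -2.78 in Ets2 null, 0.92, 0.98 and 1.81 in Ets1 null, and 1.57, 1.42 and 1.28 in wild type. Here both labelled Ets1/2 null arrays lay well below every array but the low Ets2 null one. Aurka, the Aurora kinase of the centrosome, showed the same order with smaller gaps, at 0.23 and -2.16 in the labelled Ets1/2 null arrays against 1.30 to 1.79 in wild type.

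The chromosomal passenger complex corrects faulty spindle attachments and moves to the midzone before cytokinesis. Birc5 (survivin), its targeting subunit, had 1.97 and 0.22 in the labelled Ets1/2 null arrays, 2.41, 2.11 and -3.14 in Ets2 null, 2.29, 2.26 and 2.90 in Ets1 null, and 2.23, 2.33 and 2.34 in wild type. Its kinase Aurkb had 0.03 and -0.72 in the labelled Ets1/2 null arrays, 0.91, 0.56 and -4.27 in Ets2 null, 0.54, 0.35 and 1.34 in Ets1 null, and 0.41, 0.50 and 0.91 in wild type. For both genes the labelled Ets1/2 null arrays did not overlap wild type. Without Ets2 null array 3 both were called lower there than in Ets1 null, beside 12.8% of all genes. Neither was called against wild type in that fit (limma, adjusted p of 0.0725 for Birc5 and 0.0671 for Aurkb). With a term for male arrays added, neither was called against Ets1 null.

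Of the spindle checkpoint genes, Mad2l1 had 1.91 and 0.80 in the labelled Ets1/2 null arrays, 1.68, 1.53 and -1.84 in Ets2 null, 1.71, 1.63 and 2.24 in Ets1 null, and 1.88, 1.80 and 2.40 in wild type. All 3 Ets2 null arrays lay below wild type for this gene, with a difference of -1.57 ± 0.81 (SE, limma, adjusted p = 0.327) that was not called. Bub1, the kinase that marks unattached kinetochores, had 1.77 and 0.26 in the labelled Ets1/2 null arrays, 1.73, 1.23 and -4.52 in Ets2 null, 1.28, 1.45 and 2.14 in Ets1 null, and 1.32, 1.35 and 2.16 in wild type. Bub1b (BubR1), an inhibitor of Cdc20, differed from Bub1 in its pattern. It had -0.10 and -1.45 in the labelled Ets1/2 null arrays, 1.51, 1.20 and -2.41 in Ets2 null, 1.16, 1.52 and 2.08 in Ets1 null, and 1.37, 1.36 and 1.83 in wild type. The gap of labelled Ets1/2 null array 1 to the wild-type mean was -1.62 in this probe set of Bub1b and -0.63 in its dimmer one. Ttk (Mps1) was dimmer, at 0.07 and -0.98 in the labelled Ets1/2 null arrays and at most 0.37 in wild type.

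The anaphase-promoting complex tags mitotic proteins for destruction. Ube2c, its ubiquitin-conjugating enzyme, had 1.0 and -0.95 in the labelled Ets1/2 null arrays, 3.63, 3.27 and -1.44 in Ets2 null, 3.30, 3.44 and 4.10 in Ets1 null, and 3.39, 3.21 and 3.88 in wild type. With all arrays its difference between labelled Ets1/2 null and wild type was -3.46 ± 1.31 (SE, limma, adjusted p = 0.0769), the smallest adjusted p of the 37 genes in that comparison. Cdc20 had 2.41 and -1.85 in the labelled Ets1/2 null arrays, 3.08, 2.68 and -1.02 in Ets2 null, 2.33, 2.61 and 2.91 in Ets1 null, and 2.85, 2.89 and 3.17 in wild type. The brightest Cdc20 probe set was near the other arrays in labelled Ets1/2 null array 1. The dimmer Cdc20 probe sets had gaps of -1.11 and -0.60 to their wild-type means in that array. For Ube2c both labelled Ets1/2 null arrays were low. The promoters of both genes are shown above, and both carry CCAAT and TTTGAA.

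In the centromere and kinetochore, Cenpa, the histone H3 variant of centromeres, had 1.23 and -1.22 in the labelled Ets1/2 null arrays, 2.33, 2.09 and -2.33 in Ets2 null, 1.81, 1.96 and 2.23 in Ets1 null, and 2.41, 2.23 and 2.60 in wild type. Spc25, a subunit of the Ndc80 complex that binds microtubules, had 1.55 and 0.36 in the labelled Ets1/2 null arrays, 2.20, 1.71 and -2.13 in Ets2 null, 1.11, 0.94 and 1.80 in Ets1 null, and 1.02, 1.18 and 1.47 in wild type. For Spc25 labelled Ets1/2 null array 1 lay above every wild-type array, unlike Cenpa. Nuf2 and Ndc80, partners of Spc25 in the same complex, lay between -0.36 and 0.69 outside the 2 low arrays. Cenpe and Cenpf, kinetochore proteins that carry motors or bind microtubules, lay between 0.55 and 2.30 outside the 2 low arrays.

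Of the genes of mitotic chromosome structure, Mki67, which encodes the proliferation marker Ki-67 that coats mitotic chromosomes, had 3.04 and 1.26 in the labelled Ets1/2 null arrays, 2.96, 2.86 and -2.84 in Ets2 null, 2.60, 2.48 and 3.10 in Ets1 null, and 2.94, 2.85 and 2.85 in wild type. The wild-type arrays lay close together on this gene, and labelled Ets1/2 null array 1 lay just above them. Top2a, the topoisomerase that untangles sister chromatids, had 2.50 and 2.06 in the labelled Ets1/2 null arrays, 3.27, 3.04 and -1.88 in Ets2 null, 3.08, 2.66 and 3.58 in Ets1 null, and 2.96, 2.66 and 3.06 in wild type. The condensin gene Ncapd2 had -0.49 and -1.39 in the labelled Ets1/2 null arrays, 1.24, 0.93 and -2.20 in Ets2 null, 0.33, 0.54 and 1.15 in Ets1 null, and 1.11, 0.91 and 0.93 in wild type. Of the other condensin genes, Ncapg had 0.44 and -0.99 and Ncaph 1.54 and 0.82 in the labelled Ets1/2 null arrays, where the first value of each lay within or above the wild-type values. The dimmer probe set of Ncaph, however, had 0.00 and -0.14 there, below its wild-type values of 0.96 to 1.35. Kif4, a motor that rides on chromosome arms, had -0.17 and -1.70 in the labelled Ets1/2 null arrays, both below the wild-type values of 0.30 to 0.44. Kif22, another such motor, had 2.51 and 0.59 there, and the first of these lay above the wild-type values of 2.15 to 2.41. Its other probe sets disagreed, lying below their wild-type means in that array by 1.41 and 1.22.

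Of the spindle motors and assembly factors, Nusap1, which bundles microtubules, had 1.55 and -0.38 in the labelled Ets1/2 null arrays, 2.07, 1.55 and -3.64 in Ets2 null, 1.29, 1.32 and 2.18 in Ets1 null, and 1.36, 1.09 and 1.81 in wild type. Tpx2, the activator of Aurora A, had 1.31 and -0.62 in the labelled Ets1/2 null arrays, 1.49, 1.11 and -3.38 in Ets2 null, 1.01, 1.23 and 1.91 in Ets1 null, and 1.51, 1.26 and 1.83 in wild type. In both genes array 1 of the labelled Ets1/2 null group lay within the wild-type values. Kif11, the motor that pushes spindle poles apart, had -0.78 and -2.24 in the labelled Ets1/2 null arrays, both below the wild-type values of -0.20 to 0.35.

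Of the central spindle and cytokinesis genes, Anln, the anillin scaffold of the contractile ring, had 3.32 and 1.54 in the labelled Ets1/2 null arrays, 3.37, 3.15 and -0.91 in Ets2 null, 2.60, 2.63 and 3.07 in Ets1 null, and 3.32, 2.75 and 3.08 in wild type. Prc1, which bundles the microtubules of the central spindle, had 1.63 and -0.14 in the labelled Ets1/2 null arrays, 3.01, 2.51 and -2.12 in Ets2 null, 1.92, 1.93 and 2.82 in Ets1 null, and 2.32, 2.22 and 2.44 in wild type. Kif20a (MKLP2), which carries Aurora B to the midzone, had 0.43 and -1.96 in the labelled Ets1/2 null arrays, 1.61, 1.02 and -3.42 in Ets2 null, 1.55, 1.36 and 1.90 in Ets1 null, and 1.53, 1.38 and 1.75 in wild type. Both labelled Ets1/2 null arrays lay below wild type for Prc1 and Kif20a, and array 1 did not for Anln. Racgap1 and Kif23 form the centralspindlin complex, and Racgap1 had 0.70 and -0.95 in the labelled Ets1/2 null arrays against 1.22 to 1.51 in wild type. Ect2, the exchange factor that centralspindlin recruits to activate RhoA, had 0.33 and -2.29 in the labelled Ets1/2 null arrays against 0.48 to 0.76 in wild type. Cep55, which acts at the final cut, had 1.34 and -0.63 in the labelled Ets1/2 null arrays against 0.52 to 1.29 in wild type.

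Ets2 null against wild type turned on array 3. With it, all 37 genes had lower means in Ets2 null, with a median difference of -1.42, against -0.0055 over all genes. Without it, the median difference was 0.095, single differences lay between -0.43 and 0.73, and 14 of the 37 genes were below wild type. The count called stayed 0 of 37, beside 0.0635% of all genes (7 genes). The smallest adjusted p without that array belonged to Spc25, which was higher in Ets2 null by 0.73 ± 0.38 (SE, limma, adjusted p = 0.443). For Ets1 null against wild type the median difference was -0.068 with all arrays, against -0.027 over all genes, and 21 of 37 genes were below wild type. Neither result shows that the single nulls equal wild type.

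In the arrays labelled Ets1/2 null, all 37 genes had lower means than in wild type and than in Ets1 null. The median difference was -1.20 against wild type, while that of all genes was 0.11, and -1.04 against Ets1 null, while that of all genes was 0.17. Against Ets2 null the median difference was 0.24 with the low Ets2 null array in the fit and -1.27 without it. Part of this rests on labelled Ets1/2 null array 2, since the median difference from wild type was -0.33 with array 1 alone and -2.04 with array 2 alone.

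Leaving out Ets2 null array 3 lowered the spread, and genes were then called lower in the arrays labelled Ets1/2 null. That array was singled out after the values of these same genes were seen, and labelled Ets1/2 null array 2 was kept. The calls and adjusted p-values of this fit are therefore descriptions. Against wild type 12 of 37 (32.4%) were called lower, beside 13.3% of all genes. They were Ube2c, Ncapd2, Plk1, Bub1b, Cenpa, Kif20a, Aurka, Nuf2, Kif11, Racgap1, Kif4 and Prc1. Against Ets1 null 12 were called lower, beside 12.8%, with Aurkb and Birc5 in place of Nuf2 and Prc1. Against Ets2 null arrays 1 and 2, 11 were called lower, beside 13.5%, and these were the 12 called against wild type less Racgap1. None was called higher. In the interaction 4 were called lower, beside 7.51%, namely Ube2c, Plk1, Ncapd2 and Bub1b. With a term for male arrays added to that fit, a choice made after the data were seen, 6 were called lower against wild type (Ube2c, Bub1b, Plk1, Cenpa, Kif20a and Ncapd2), beside 10.8% of all genes, and 10 against Ets1 null, beside 12.5%, where Aurkb and Birc5 were lost. Against Ets2 null and in the interaction none was then called, beside 1.64% and 2.97% of all genes.

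The largest of these differences from wild type was that of Ube2c, at -3.46 ± 0.52 (SE, limma, adjusted p = 0.00261). Plk1 differed by -2.99 ± 0.51 (SE, limma, adjusted p = 0.00398), Ncapd2 by -1.93 ± 0.31 (SE, limma, adjusted p = 0.00342) and Bub1b by -2.30 ± 0.41 (SE, limma, adjusted p = 0.00487). Both labelled Ets1/2 null arrays lay below every wild-type, Ets1 null and remaining Ets2 null array for these 4 genes. These genes were picked by their calls on the same arrays, so this restates those calls. Array 1 alone lay below all those arrays in 24% of all genes. Cdc20 had a difference of similar size, -2.69, that was not called.

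Leaving out both low arrays, a choice made after their values were seen, left labelled Ets1/2 null array 1 alone in its group, and its spread was then assumed to equal that of the other groups. Against wild type 6 of 37 (16.2%) were called lower, beside 10.4% of all genes, and 6 against Ets1 null, beside 11%. Both sets held Ube2c, Bub1b, Plk1, Cenpa, Kif20a and Ncapd2. Against Ets2 null 5 were called lower, beside 11.3%, the same genes less Kif20a. Ube2c differed from wild type by -2.49 ± 0.38 (SE, limma, adjusted p = 0.00678) and Plk1 by -2.05 ± 0.37 (SE, limma, adjusted p = 0.0111) in that fit. These counts rest on 1 array of the group and, for each of these genes but Bub1b, on the only probe set of the gene.

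**Figure D2:**
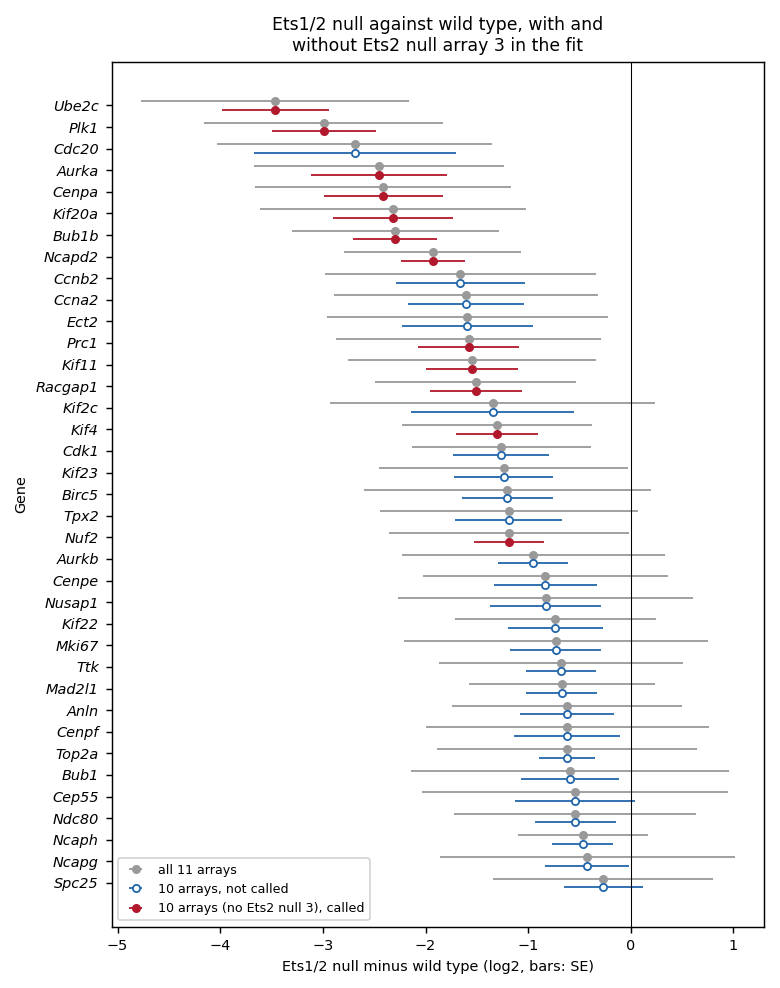
Difference of the labelled Ets1/2 null arrays from wild type (log2, horizontal axis) for each of the 37 genes, with bars for SE. Grey points are the fit of all 11 arrays and coloured points the fit of 10 arrays without Ets2 null array 3, where filled red points mark the 12 genes called. The points coincide and the bars shorten when that array is left out.

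Other cell cycle lists separated the 2 low arrays. In Ets2 null array 3 the 53 DNA replication genes also lay below arrays 1 and 2, with a median gap of -1.83, and 37 of the 53 lay more than 1 below. In labelled Ets1/2 null array 2 their median gap to array 1 was -0.08, and 3 of 53 lay more than 1 below, against 33 of 37 mitosis and cytokinesis genes. The 104 other mitosis and cytokinesis genes lay between these, with median gaps of -2.21 in Ets2 null array 3 and -0.71 in labelled Ets1/2 null array 2. The difference between the 2 low arrays was not tested, since each is a single array.

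Tk1, thymidine kinase, and Dbf4, the activator of the Cdc7 kinase that fires replication origins, had the largest gaps of the replication genes in Ets2 null array 3. Tk1 had 0.35 and -0.11 in the labelled Ets1/2 null arrays, 2.08, 2.04 and -2.83 in Ets2 null, 2.04, 2.03 and 2.98 in Ets1 null, and 2.19, 2.44 and 2.29 in wild type. Dbf4 had 1.06 and -0.61 in the labelled Ets1/2 null arrays, 1.29, 1.03 and -3.21 in Ets2 null, 1.16, 1.05 and 1.65 in Ets1 null, and 1.75, 1.54 and 1.59 in wild type. Mcm6, a subunit of the replicative helicase, shows how the low arrays parted, with 1.96 and 2.80 in the labelled Ets1/2 null arrays and 2.55, 2.54 and -1.31 in Ets2 null. It was chosen after its values were seen. Of the other mitosis genes, Pbk and Melk, kinases of dividing cells, had gaps of -6.07 and -5.51 in Ets2 null array 3 and of -0.38 and -1.24 in labelled Ets1/2 null array 2. The repressors E2f8 and E2f7 had gaps of -4.17 and -3.46 in Ets2 null array 3, and of 1.10 and -1.53 in labelled Ets1/2 null array 2.

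**Figure D3:**
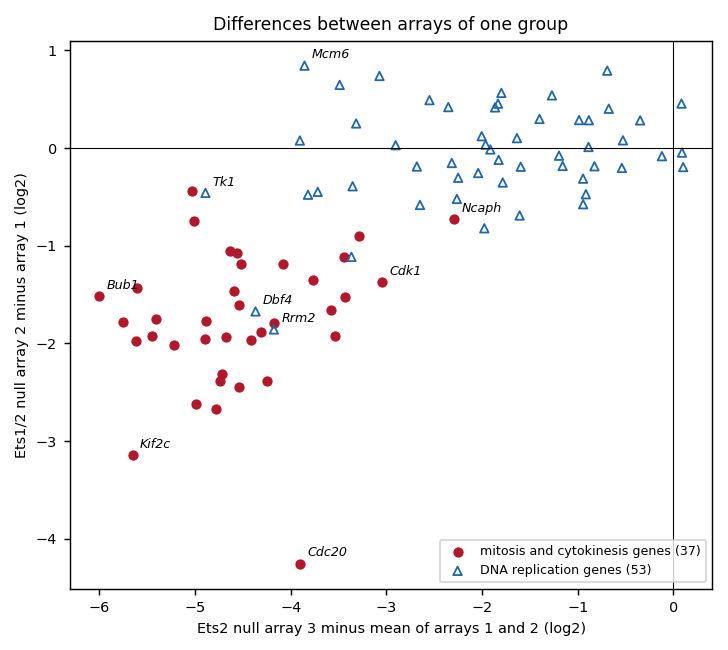
Each point is a gene, with the gap of Ets2 null array 3 to the mean of arrays 1 and 2 on the horizontal axis and the gap of labelled Ets1/2 null array 2 to array 1 on the vertical axis (log2), filled for mitosis and cytokinesis genes and open for DNA replication genes. The filled points lie low on both axes, while most open points lie left of 0 and near 0 vertically.

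G1 cyclins and their kinases, which act before DNA synthesis, had a median gap of -0.24 in Ets2 null array 3 and of -0.17 in labelled Ets1/2 null array 2. Ccne2, cyclin E2, and Skp2, the ubiquitin ligase subunit that degrades p27, were the lowest in Ets2 null array 3, with gaps of -4.53 and -1.46. The 28 cyclin-dependent kinase inhibitor and growth arrest genes had a median gap of 0.45 in Ets2 null array 3. Gas1 and Gas6, named for growth arrest, were picked as the 2 largest gaps of the list, at 2.29 and 1.79. In labelled Ets1/2 null array 2 the median gap of that list was -0.16.

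**Figure D4:**
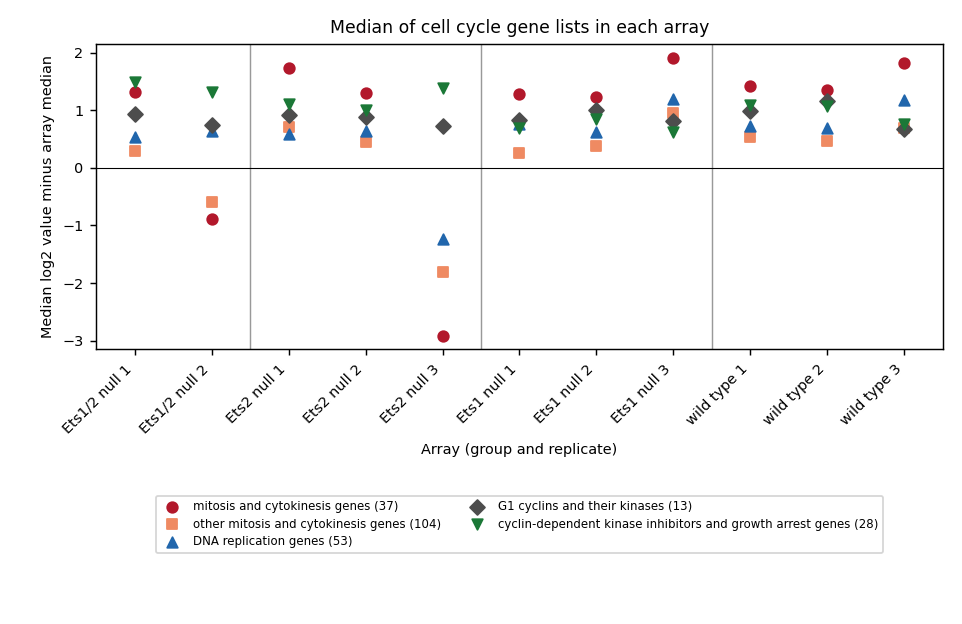
Median centred level (log2, vertical axis) of 5 cell cycle lists in each of the 11 arrays (horizontal axis), with 1 symbol per list. The mitosis and cytokinesis genes reach -2.91 in Ets2 null array 3 and -0.89 in labelled Ets1/2 null array 2, and the DNA replication genes lie below 0 in Ets2 null array 3 only.

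In the fit of all 11 arrays, 9 of the 104 other mitosis and cytokinesis genes fell and 5 rose in the arrays labelled Ets1/2 null against wild type, in all 13.5% of the list, below the 28.3% of all genes called. Anapc5, a subunit of the anaphase-promoting complex, fell by 4.17 ± 0.27 (SE, limma, adjusted p = 0.000118). Ube2s, which extends ubiquitin chains for that complex, differed by -2.98 ± 0.40, Fzr1, its G1 activator, by -2.64 ± 0.36, and Numa1, a spindle pole protein, by -1.38 ± 0.17 (SE, limma, adjusted p of 0.00106 to 0.0015). Anapc5 had -1.86 and -1.84 in the labelled Ets1/2 null arrays, against 2.69, 2.50 and 1.76 in wild type, so array 2 did not stand apart for it. Anapc5, Ube2s, Fzr1 and Numa1 were also called lower against Ets1 null (7 called lower and 5 higher, 11.5% of the list beside 28.7% of all genes), against Ets2 null (12 and 2, 13.5% beside 30.3%) and in the interaction (5 and 2, 6.73% beside 14.5%). The 9 genes that fell against wild type were called lower in the values as deposited too, and none of the 5 that rose was called there.

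The shares called in the other lists were also below the 28.3% of all genes called in this comparison, at 13.2% of the DNA replication genes, 17.4% of the regulators, 15.4% of the G1 genes and 25% of the inhibitors. Of the 53 DNA replication genes 5 fell and 2 rose against wild type, the most clearly called being Orc3 (0.64 ± 0.16), Orc2 (-1.07 ± 0.28), Pola2 (-1.50 ± 0.43) and Orc5 (0.53 ± 0.15), all with SE. Of the 23 transcriptional regulators of the mitotic genes 3 fell and 1 rose. E2f1, an activator of S-phase genes, differed by -1.40 ± 0.32, E2f2 by -1.01 ± 0.26, the NF-Y subunit Nfyb by -0.73 ± 0.21 and the retinoblastoma gene Rb1 by 1.25 ± 0.32 (SE). Foxm1, the activator of G2 and M phase genes, was not called and stood at -0.55 and -1.27 in the labelled Ets1/2 null arrays, against 0.47, 0.16 and 0.22 in wild type. Of 13 G1 cyclin and kinase genes Cdk2 fell (-1.26 ± 0.26, SE) and Mnat1 rose (0.57 ± 0.17, SE). Of 28 inhibitors and growth arrest genes 5 rose and 2 fell, among them Ccng2 (1.99 ± 0.29), Foxo1 (1.89 ± 0.39), Gas5 (1.65 ± 0.35) and Cdkn2d (-2.80 ± 0.48, SE). In the values as deposited, the genes named here as lower were called lower too, while of those named as higher Ccng2 and Foxo1 were called and Orc3, Orc5, Rb1, Mnat1 and Gas5 were not, with Orc3, Orc5 and Mnat1 slightly below wild type. In Ets2 null and in Ets1 null no gene of these lists was called against wild type.

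Against the single nulls the calls in the arrays labelled Ets1/2 null were as follows after centring. Of these cell cycle lists, none but the inhibitors against Ets2 null (10 of 28, 35.7%, beside 30.3% of all genes) had a larger share called than all genes. Against Ets1 null, the replication genes Pola2, Rfc3 and Orc2 fell and Orc3 rose, E2f1 and E2f2 fell and Rb1 rose, Cdk2 fell, and of the inhibitors Cdkn2d fell and Ccng2, Sesn3, Foxo1, Foxo3 and Gas5 rose. Against Ets2 null, E2f1 fell and Rb1 rose, Orc4 and Orc5 rose, and Ccnd3, cyclin D3, fell by 1.51 ± 0.28 (SE, limma, adjusted p = 0.00464) while Mnat1 rose. Cdkn1b, which encodes the inhibitor p27, was higher there by 1.84 ± 0.28 (SE, limma, adjusted p = 0.00192). Ccng2, Gas5, Gadd45g, Klf6, Foxo1 and Foxo3 were also called higher, and Cdkn2d, Gas6 and the stress gene Sesn2 lower, in the same comparison. In the interaction Ccnd3 and Cdkn2d were called lower, and Orc4, Ccng2 and Cdkn1b higher. Of these rises, Ccng2 in all 3 comparisons and Cdkn1b against Ets2 null were called in the values as deposited, where Orc3 lay below Ets1 null and Orc4 and Orc5 lay below Ets2 null. With a term for male arrays, 2 of the 44 calls against Ets2 null over all cell cycle and marker lists (Anapc5 and Numa1) were still made, as were 22 of 39 against wild type, 32 of 33 against Ets1 null and 6 of 18 in the interaction.

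Markers of other cell types are given beside the low arrays as the log2 of the summed deposited intensity of each list. These sums are not centred. The deposited median over genes was 8.73 and 8.69 in the labelled Ets1/2 null arrays, against 9.37 to 9.50 in the other arrays. Sums of that group therefore compare poorly with those of other groups. The 18 of 20 fibroblast markers that could be followed summed to 16.52 to 16.98 in the labelled Ets1/2 null arrays, 16.67 to 16.94 in Ets2 null, 16.59 to 16.72 in Ets1 null and 16.53 to 17.0 in wild type. The 13 of 18 smooth muscle and pericyte markers summed to 13.47 and 15.48 in the labelled Ets1/2 null arrays, 13.94 to 15.01 in Ets2 null, 14.10 to 14.73 in Ets1 null and 13.97 to 14.93 in wild type. Ets2 null array 3 was the highest of its group for both lists, and labelled Ets1/2 null array 2 was the lower of its group for both. The 10 endothelial markers summed to 13.40 to 13.91 in the labelled Ets1/2 null arrays, 13.72 to 14.52 in Ets2 null, 13.38 to 13.58 in Ets1 null and 13.98 to 14.34 in wild type. The same order held for them, with Ets2 null array 3 the highest and labelled Ets1/2 null array 2 the lower of its group. After centring, the fibroblast list had a median of 2.99 and 2.90 in the labelled Ets1/2 null arrays, against 0.81 to 2.10 in the other arrays. The endothelial list had -1.05 and -1.71, against -1.76 to 0.79. The smooth muscle and pericyte list had 0.19 and -0.75, against -1.14 to 0.83.

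The 7 of 20 leukocyte markers summed to 9.54 to 9.97 in the labelled Ets1/2 null arrays, 9.86 to 10.08 in Ets2 null, 10.77 to 11.44 in Ets1 null and 10.16 to 10.98 in wild type, and Lyz2 had centred levels of -2.86 to -2.36 over the 11 arrays. The 7 of 16 epithelial and mesothelial markers summed to 11.48 to 13.67 in the labelled Ets1/2 null arrays, 11.59 to 12.89 in Ets2 null, 13.89 to 14.42 in Ets1 null and 10.45 to 12.79 in wild type. The pericyte genes Notch3 and Rgs5 lay above arrays 1 and 2 in Ets2 null array 3, by 2.42 and 2.28, as did the fibroblast genes Lox and Col3a1, by 3.41 and 2.60. They are the extremes of lists that went both ways, since the 13 smooth muscle and pericyte markers had a median gap of 0.08 in that array, with 6 below 0 and a lowest gap of -1.98, and the 18 fibroblast markers had a median gap of 0.73, with 6 below 0. Against wild type, the fibroblast genes Fn1 and Lox and the leukocyte genes Csf1r and Cd3e were called higher in the arrays labelled Ets1/2 null after centring, and none of the 4 in the values as deposited. No smooth muscle or epithelial marker was called in that comparison. Against Ets2 null, Lox, Col1a1, Acta2 and Cav1 were called higher and Dpt, Eng and Plvap lower both after centring and in the values as deposited, but none of these with a term for male arrays. The part of these markers in the level of the mitosis and cytokinesis genes was not tested.

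Where a gene had more than 1 probe set, the others can be set beside the brightest. The 16 genes with several had 22 dimmer probe sets, of which 20 lay more than 1 below in Ets2 null array 3 and 21 lay lower in labelled Ets1/2 null array 2 than in array 1. They parted from the brightest in labelled Ets1/2 null array 1, where 19 of 22 dimmer probe sets lay below the wild-type mean (median gap -0.78), against 10 of the 16 brightest (median gap -0.31). Kif2c, the motor that depolymerises microtubules, had a gap of 0.23 in its brightest probe set and of -2.75 and -2.82 in the other probe sets. For Cep55 the gaps were 0.44 in the brightest and -2.65 in the other probe set. Kif22 had gaps of 0.23 in the brightest and of -1.41 and -1.22 in the others, and Ncaph of -0.11 and -1.17. The level of these genes in labelled Ets1/2 null array 1 is therefore uncertain. Ube2c, Plk1, Cenpa, Kif20a and Ncapd2, named above as lower, had 1 probe set each, so their levels could not be set beside another probe set.

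The levels of the 37 genes ran in parallel across arrays. Pearson's r over the 666 pairs of genes had a median of 0.95 over 11 arrays, 0.87 over the 10 arrays without Ets2 null array 3, and 0.55 over the 9 arrays without both low arrays, where 620 pairs stayed above 0. These values describe arrays that share culture and processing.

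Outside the cell cycle lists, the genes whose levels followed the median of the 37 most closely over 11 arrays were Knstrn (r = 0.99), Parpbp (0.98), Cip2a (0.98), Eme1 (0.98), Asf1b (0.97), Depdc1b (0.96), Cenpw (0.96) and Cdkn3 (0.96). Without both low arrays r was 0.65 for Knstrn, 0.93 for Eme1 and -0.31 for Cdkn3. Running opposite to the median were Prkce (-0.94), Stoml1 (-0.93), Slc46a1 (-0.92), Htra3 (-0.92), Olfml2a (-0.92), Eif3f (-0.91), Gnb5 (-0.91) and Dffa (-0.90). With both low arrays left out, r was -0.88 for Eif3f, -0.61 for Prkce, -0.50 for Stoml1 and -0.43 for Htra3. It was -0.37 for Slc46a1, -0.20 for Olfml2a, -0.09 for Gnb5 and -0.0003 for Dffa. Eif3f, a subunit of translation initiation factor 3, had 4.05 and 4.49 in the labelled Ets1/2 null arrays, 3.88, 4.06 and 4.46 in Ets2 null, 4.12, 4.11 and 3.91 in Ets1 null, and 4.01, 4.04 and 3.99 in wild type. Its 2 highest values were those of the 2 arrays where the mitosis and cytokinesis genes were low. Eif3f was picked by its correlation over these same arrays, so this restates the choice.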

How the data were processed

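Each array measured RNA of 1 culture on an Affymetrix mouse genome platform. Per the submitters' processing notes the authors used RMA, and the deposited values are log2 intensities per probe set; no source used here gives the RMA version, filters or joint normalization. Of 12 deposited columns, 11 were used. Of 20523 probe sets, 18824 had 1 symbol, 549 several and 1150 none in a probe annotation that can be old.

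From these values each of 11015 genes took its probe set with the highest mean, and the median over genes was subtracted within each array. limma 3.58.1 in R 4.3.3 fitted group means (lmFit, eBayes, two-sided, 7 residual degrees of freedom), with Benjamini-Hochberg adjustment over all genes and a threshold of 0.05; the fit was tested on simulated data. The design named all arrays but the third Ets1/2 null column. pandas 2.3.3 and matplotlib 3.10.9 made tables and plots. After group means were subtracted, same-numbered arrays correlated at a median of -0.056 over 15 pairs, against 0.0083 over 30 other pairs. These values gave no sign that numbers pair arrays. Such residuals sum to 0 within a group, which limits what they can show.

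The gene group and all lists were chosen with earlier results of these data known. Levels were to be printed for the 2 brightest genes of each role, Mki67 and genes called; other lists name up to 4 called genes a comparison and the 2 with the largest gap in Ets2 null array 3. Genes printed beyond that (Ccnb2, Aurka, Ttk, Kif11, Ect2, Cep55, Kif2c, Foxm1, Eif3f and the like) were chosen after their values were seen. Alternatives changed scaling, probe sets, filter, arrays, weights, block and a term for sex (male where Eif2s3y exceeds Xist). The number of arrays limits the precision.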

Additional observations from a re-analysis of the deposited data

How the results depend on the processing

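Under every alternative the 37 genes gave 0 called higher in each comparison, and Ets1 null and Ets2 null against wild type gave 0 called lower. The number called lower in labelled Ets1/2 null against wild type (0 as reported) was 4 in the values as deposited (beside 43.6% of all genes called lower), 4 with only the compared groups in the fit (6.02%) and 2 with the third column kept (16.1%); against Ets1 null it was 4 (42.8%), 4 (9.73%) and 3 (14.9%) under these, and 1 (10.7%) with array weights; against Ets2 null it was 1 (12.4%) with array weights. Leaving out each array in turn gave 0 to 12 against wild type (8.38% to 13.3% of all genes), 0 to 12 against Ets1 null (7.53% to 12.8%), 0 to 11 against Ets2 null (9.56% to 14.3%) and 0 to 4 in the interaction (4.34% to 7.51%). The highest of each came without Ets2 null array 3; without labelled Ets1/2 null array 1 the single gene called was Cdc20. Leaving out both low arrays, added after seeing the data, gave 6, 6, 5 and 2 (10.4%, 11%, 11.3% and 8.03%). A term for male arrays without Ets2 null array 3, also added then, gave 6, 10, 0 and 0 (10.8%, 12.5%, 1.64% and 2.97%), with medians of -1.30 against Ets2 null and -1.26 in the interaction. The median difference ranged over left-out arrays from -2.26 to 0.095 for Ets2 null against wild type, -0.32 to 0.099 for Ets1 null against wild type, -2.04 to -0.33 and -1.97 to -0.21 for labelled Ets1/2 null against wild type and Ets1 null, -1.27 to 1.10 against Ets2 null and -1.22 to 1.21 for the interaction. With both low arrays out it was 0.095 for Ets2 null against wild type. Of single genes, Nuf2 in labelled Ets1/2 null against Ets2 null was 0.17 with all arrays and -1.36 (limma, adjusted p = 0.028) without Ets2 null array 3. With the replicate block, which the numbers do not justify, no gene of the 37 was called and the median was -1.61 against wild type. For these changes the cause was not tested, and the n of 2 and 3 arrays limits what the fits can call.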
